A study of Sus scrofa with 43 samples.

Results

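PIGR and FCGRT encode the receptors that carry immunoglobulins across the intestinal epithelium. Both genes were found on a porcine one-color Agilent array by the RefSeq accession of their transcripts. PIGR was measured by 1 spot (probe A_72_P303009), and FCGRT by 3 spots with different probes (A_72_P570294, A_72_P440381 and A_72_P232557), so the members are 2 of the 35884 transcript accessions and 4 of the 43803 gene spots on the array. Both were among the 12771 genes that passed the filter on low intensity and were tested.

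The polymeric immunoglobulin receptor (pIgR) is made by epithelial cells, binds dimeric IgA and IgM at the basolateral side, carries them to the lumen and is cleaved there, so that its outer part leaves as the secretory component of secretory IgA. The neonatal Fc receptor (FcRn), whose heavy chain is encoded by FCGRT and whose light chain is beta-2-microglobulin, binds IgG and albumin in acidic endosomes and returns or transports them instead of letting them be degraded. Piglets are born nearly without circulating antibodies, take up colostral IgG through the gut in the first hours or days of life, receive milk IgA while suckling, and build up IgA secretion of their own around and after weaning.

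Jejunal scrapings of 43 piglets were compared, 1 array per piglet. The control arm had 23 piglets from sows on standard feed. The amoxicillin arm had 20 piglets from sows that were given 15 mg/kg of the beta-lactam amoxicillin by mouth each day over the last week before farrowing. On day 1 and again on day 7 there were 6 control and 4 amoxicillin piglets, followed by 3 and 4 when they were weaned, 5 and 4 at 4 d postweaning, and 3 and 4 at 28 d postweaning. The antibiotic went to the sow only, every age was sampled in other piglets, and the study's methods state that the piglets were healthy males of average weight, 1 per sow at each age. The spread between replicates is therefore taken as that between animals, but which piglets of different ages shared a sow was not given in the labels. The control arrays of day 1 include the numbers 19 and 19B, and the labels do not say how these samples relate.

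Values are log2 intensities after background correction and quantile normalization, on which 1 unit is a doubling. The number of gene spots well above background, a call of the scanner software, ranged from 15937 to 29827 (median 28182) on the control arrays and from 16150 to 26290 (median 21316.5) on the amoxicillin arrays. The 3 arrays with the fewest such spots were all of 28 d postweaning, those of control piglet 34 and amoxicillin piglets 37 and 38. The 43 arrays lay on 6 slides, and each slide held arrays of 1 arm, so arm and slide cannot be told apart. Every pair of neighbouring ages shared a slide in each arm, so that each step in age can also be read within a slide. At weaning, the arrays of control piglet 7 and amoxicillin piglet 8 stood apart, with the summed level of the B cell markers CD79A and MS4A1 at 14.63 and 15.03 on the log2 scale, against 8.00 to 10.84 in the other weaning piglets.

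PIGR was the member that changed with age. In control piglets its level ran from a group mean of 6.22 on day 1 to 12.85 at 28 d postweaning, and in piglets from amoxicillin-treated sows from 6.51 to 13.15. On day 1 the 6 control arrays had a lowest value of 4.53, a median of 6.18 and a highest of 8.44, and the 4 amoxicillin arrays read 4.17, 6.08, 6.99 and 8.78. These were dim spots. The probe was well above background in 4 of the 6 control piglets and 2 of the 4 amoxicillin piglets, and in 37 of all 43, with raw intensities from 46 to 25715 and no saturated spot.

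On day 7 the control arrays ranged from 4.94 to 9.14 with a median of 8.16, and the amoxicillin arrays read 6.32, 8.11, 8.50 and 8.65. On day 7 the probe was still not well above background on 1 array of each arm. At weaning the 3 control values were 6.71, 7.70 and 10.27, and the 4 amoxicillin values were 8.41, 8.47, 8.90 and 10.82. The spread between piglets was wide through suckling, with an SD of 1.07 to 1.92 in the 6 groups from day 1 to weaning, and the values of all 3 ages overlapped in both arms.

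Within 4 d after weaning PIGR was high in every piglet. The 5 control arrays read 10.25, 10.57, 10.85, 11.50 and 12.24, and the 4 amoxicillin arrays read 10.81, 12.33, 12.67 and 12.78. Against the weaning groups, only 1 array in each arm overlapped in range, that of control piglet 24 at 10.27 and that of amoxicillin piglet 29 at 10.82. At 28 d postweaning the control arrays read 11.93, 12.28 and 14.34, and the amoxicillin arrays 11.32, 13.59, 13.69 and 13.997. In scrapings of whole mucosa, fewer cells of a type and less RNA per cell cannot be told apart. No array of 28 d postweaning came down to the range of day 1 or day 7.

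**Figure D1:**
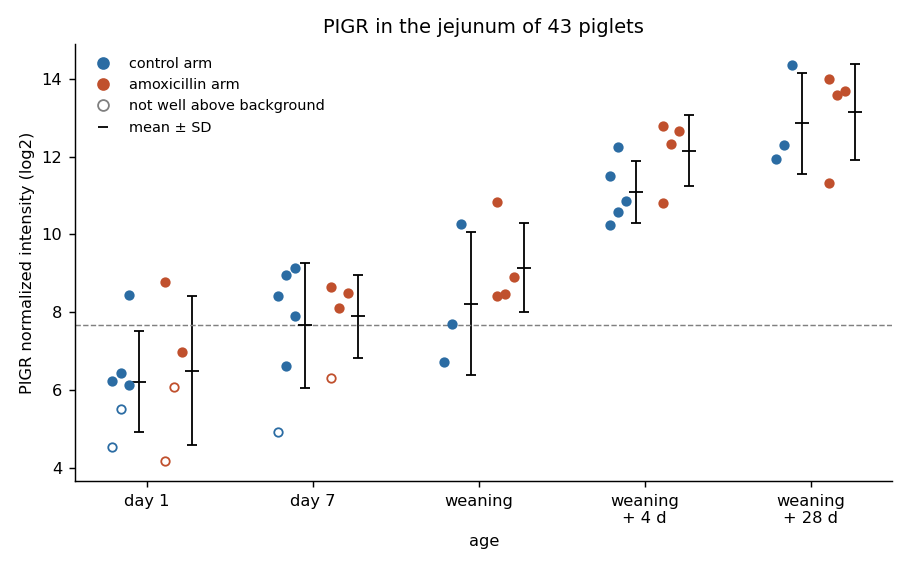
Normalized log2 intensity of the PIGR probe (vertical axis) in each of 43 piglets by age (horizontal axis) and arm, with the mean and SD of each group in black, open points for spots not well above background, and a dashed line at the threshold of the intensity filter, 7.68. No value exceeded 9.14 on day 1 or day 7, and no value at the ages after weaning was below 10.25, in either arm.

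The change over the 5 ages was tested with limma's moderated F-test, adjusted over all genes tested (Benjamini-Hochberg). PIGR passed in control piglets (adjusted p = 9.0e-07) and in amoxicillin piglets (adjusted p = 7.3e-07), where 30.5% and 47% of all genes passed. From day 1 to 28 d postweaning PIGR rose by 6.64 in control piglets (SE 0.90, 99.4-fold, 95% confidence interval 28.1- to 352-fold, limma adjusted p = 9.7e-07) and by 6.64 in amoxicillin piglets (SE 0.90, 99.9-fold, interval 28.2- to 354-fold, limma adjusted p = 6.9e-07). This contrast passed for 25.6% of genes in the control arm and 31.4% in the amoxicillin arm, and PIGR held rank 117 and 162 among the 12771 genes by p-value. PIGR exceeded the intensity filter on every array in 5 of the 10 groups, all from weaning on, and on 31 of 43 arrays. It therefore entered the test through the groups in which it was bright, and without the filter the limma adjusted p-values were 2.4e-06 and 1.2e-06.

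The size of the rise moved with the processing and with the arrays used, while its direction did not. The day 1 groups hold spots not well above background, 2 of 6 in control and 2 of 4 in amoxicillin piglets. On day 1 only control piglet 19 at 8.44 and amoxicillin piglet 21 at 8.78 exceeded the intensity filter of 7.68. The folds therefore rest largely on values near background. The rise was 56.2-fold in control and 56.8-fold in amoxicillin piglets with a larger offset in the background correction. On the scanner software's processed signal it was 192-fold and 116-fold. Without the 3 arrays with the fewest spots above background it was 121-fold and 63.9-fold. With array weights in the fit it was 198-fold in control piglets, and with slide as a random block 76.3-fold and 106.7-fold. With slide as a fixed block the rise was 4.34 in control piglets, which no longer passed (limma adjusted p = 0.53), and 7.62 in amoxicillin piglets, which did (limma adjusted p = 0.031).

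The largest single step came between weaning and 4 d postweaning. PIGR rose by 2.996 in amoxicillin piglets (SE 0.90, 7.98-fold, limma adjusted p = 0.039), where 6.37% of genes passed. In control piglets the difference was 2.85 (SE 0.93, 7.23-fold) and did not pass after adjustment (limma adjusted p = 0.080, unadjusted p = 0.0040), where 2.53% of genes passed. Within slide 5 the 3 amoxicillin arrays of 4 d postweaning were 3.44 above the 4 of weaning without overlap, and within slide 2 the single control array of 4 d postweaning was 3.28 above the 3 of weaning. The amoxicillin step did not pass without the 2 weaning arrays that had high B cell markers (2.75, limma adjusted p = 0.069), nor without any 1 of 6 arrays of these ages (limma adjusted p from 0.073 to 0.086), while the control step passed without piglet 24 (3.88, limma adjusted p = 0.043).

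The other steps were smaller than could be called against the spread between piglets. From day 1 to day 7 the difference was 1.45 in control (interval -0.04 to 2.93) and 1.39 in amoxicillin piglets (interval -0.44 to 3.21). From day 7 to weaning it was 0.56 and 1.26, and from 4 d to 28 d postweaning 1.77 and 1.00. All of these had limma adjusted p-values between 0.40 and 0.91. In control piglets 1.43, 0.125 and 0% of genes passed these steps, and in amoxicillin piglets 0.736, 11.3 and 12.7%. Within slides the first step was -0.44 in control and 1.19 in amoxicillin piglets, the second -0.38 and 0.65, and the last 1.88 and 2.34, so the early steps of the control arm turned sign when read on 1 slide.

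No difference in PIGR between the arms was detectable at any age. Amoxicillin minus control was 0.29 on day 1, 0.23 on day 7, 0.92 at weaning, 1.06 at 4 d postweaning and 0.29 at 28 d postweaning, and none of the 5 passed limma (adjusted p from 0.64 to 0.99, unadjusted p from 0.22 to 0.78). The shares of all genes that passed by adjusted p and a log2 fold change beyond 1.5, the rule of the study's methods, were 0.211, 0, 3.41, 1.54 and 2.13% at these ages. The intervals were wide. At weaning they reached from 0.484- to 7.43-fold, and on day 1 from 0.385- to 3.87-fold. With these numbers of piglets they hold several-fold higher levels in the amoxicillin arm, and also lower ones down to these bounds. Averaged over the ages the difference was 0.56 (interval -0.25 to 1.37, limma adjusted p = 0.42), and a change of the arm difference with age was not detected (limma F-test adjusted p = 0.98, with 6.18% of genes passing). A two-sided exact permutation test at each age gave p = 0.76, 0.82, 0.40, 0.095 and 0.77, of which the lowest was 0.30 after adjustment over 10 tests of both members.

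FCGRT was bright at every age. The mean of its 3 probes lay between 13.87 and 15.25 on all 43 arrays, and every array exceeded the intensity filter. The probes differed in how much they could show. Probe A_72_P232557 was saturated on 31 arrays and probe A_72_P440381 on 16, where the spot had reached the ceiling of the scanner and a further rise could not be read. Probe A_72_P570294 was saturated on none, with raw intensities from 1167 to 11594, and is described beside the mean.

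In control piglets the never-saturated probe read 11.97 to 12.62 (median 12.49) on day 1 and 11.30 to 12.34 (median 12.14) on day 7. At weaning the 3 control arrays read 11.24, 11.30 and 11.60, the lowest group mean of the 10. The 5 control arrays of 4 d postweaning read 11.97, 12.33, 12.42, 12.49 and 12.52, all above the weaning arrays. At 28 d postweaning they read 11.07, 12.46 and 13.08, and the lowest of these was control piglet 34, an array with few spots above background.

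In amoxicillin piglets the same probe read 11.57, 11.93, 12.16 and 12.29 on day 1 and 12.06, 12.58, 12.93 and 13.14 on day 7. At weaning it read 12.09, 12.49, 13.20 and 13.75, and at 4 d postweaning 12.41, 12.50, 13.13 and 13.44. The amoxicillin weaning arrays were all above the control weaning arrays. At 28 d postweaning it read 11.81, 12.05, 12.31 and 12.60, within the range of its day 1 and day 7 arrays.

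**Figure D2:**
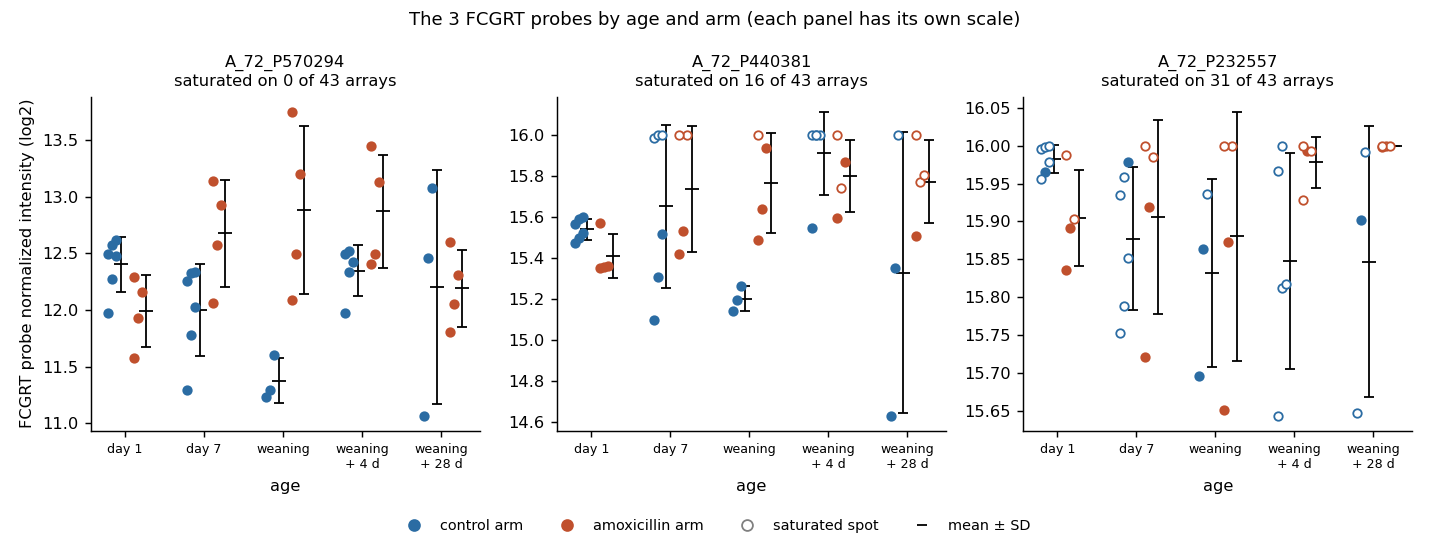
Normalized log2 intensity (vertical axes, 1 scale per panel) of the 3 FCGRT probes by age and arm in 43 piglets, with the mean and SD of each group in black and open points for saturated spots. The probes with saturated spots run into the ceiling of the scale, and for the probe with none the 3 control values at weaning sit between 11.24 and 11.60.

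FCGRT did not pass the test over the 5 ages in either arm. The limma F-test gave an adjusted p of 0.16 in control and 0.23 in amoxicillin piglets for the mean of the probes, and 0.10 and 0.058 for the never-saturated probe. From day 1 to 28 d postweaning FCGRT differed by -0.18 in control (interval -0.57 to 0.21) and 0.22 in amoxicillin piglets (interval -0.17 to 0.61), on means that include saturated spots. On the never-saturated probe these differences were -0.20 (interval -0.87 to 0.47) and 0.20 (interval -0.47 to 0.87). The steps between neighbouring ages ran from -0.37 to 0.57 for the mean of the probes, and on the never-saturated probe from -0.68, between 4 d and 28 d postweaning in amoxicillin piglets, to 0.97, between weaning and 4 d postweaning in control piglets. None of these steps passed on either measure (limma adjusted p). The low control values at weaning were also low within slide 2, where weaning was 0.49 below day 7 without overlap (3 against 4 arrays) and the single array of 4 d postweaning was 0.69 above weaning.

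At weaning FCGRT was higher in piglets from amoxicillin-treated sows. The control arrays read 14.04, 14.10 and 14.27 and the amoxicillin arrays 14.41, 14.67, 15.05 and 15.25, without overlap. The difference was 0.71 (SE 0.21, 1.63-fold, interval 1.22- to 2.19-fold, limma adjusted p = 0.029). It passed by adjusted p alone, as 7.95% of genes did at weaning, and not by the study's rule, whose fold threshold it did not reach. The never-saturated probe differed by 1.504 (2.84-fold, limma adjusted p = 0.0069), just past the fold threshold, probe A_72_P440381 by 0.57 (adjusted p = 0.13) and the mostly saturated probe A_72_P232557 by 0.05 (adjusted p = 0.88), where 8.07% of probes passed.

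All 3 control arrays of weaning lay on slide 2 and all 4 amoxicillin arrays on slide 5, so this difference cannot be told apart from one between slides. With slide as a random block the mean of the probes no longer passed (0.74, limma adjusted p = 0.11). Leaving out any 1 of 5 weaning arrays gave adjusted p-values of 0.051 to 0.11, and without both arrays with high B cell markers the difference was 0.80 (limma adjusted p = 0.033). A two-sided exact permutation test gave p = 0.057, or 0.29 after adjustment over 10 tests, where 3 against 4 arrays cannot go below 0.029. The summed level of 8 enterocyte markers was 18.37 to 18.77 on the control weaning arrays and 17.22 to 18.85 on the amoxicillin ones, with the lowest in amoxicillin piglet 8, whose part in the difference was not tested beyond leaving that array out.

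At the other ages FCGRT differed between the arms by -0.21 on day 1, 0.26 on day 7, 0.18 at 4 d postweaning and 0.19 at 28 d postweaning, and none passed limma (adjusted p from 0.72 to 0.86). By adjusted p alone 0.258, 0, 3.37 and 4.11% of genes passed at these ages. On day 1 the 4 amoxicillin arrays read 14.31 to 14.54 against 14.51 to 14.73 in control, and the exact permutation test gave p = 0.014, or 0.14 after adjustment. Averaged over the ages the difference was 0.23 (interval 0.05 to 0.40, limma adjusted p = 0.083, with 10.1% of genes passing). It passed by adjusted p without control piglet 37 of 28 d postweaning (0.28, limma adjusted p = 0.023) and without amoxicillin piglet 8 of weaning (0.26, limma adjusted p = 0.035). On the never-saturated probe it was 0.46 (limma adjusted p = 0.042), where 9.29% of probes passed. The arm difference of FCGRT was not shown to change with age after adjustment (limma F-test adjusted p = 0.22, and 0.057 on the never-saturated probe).

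**Figure D3:**
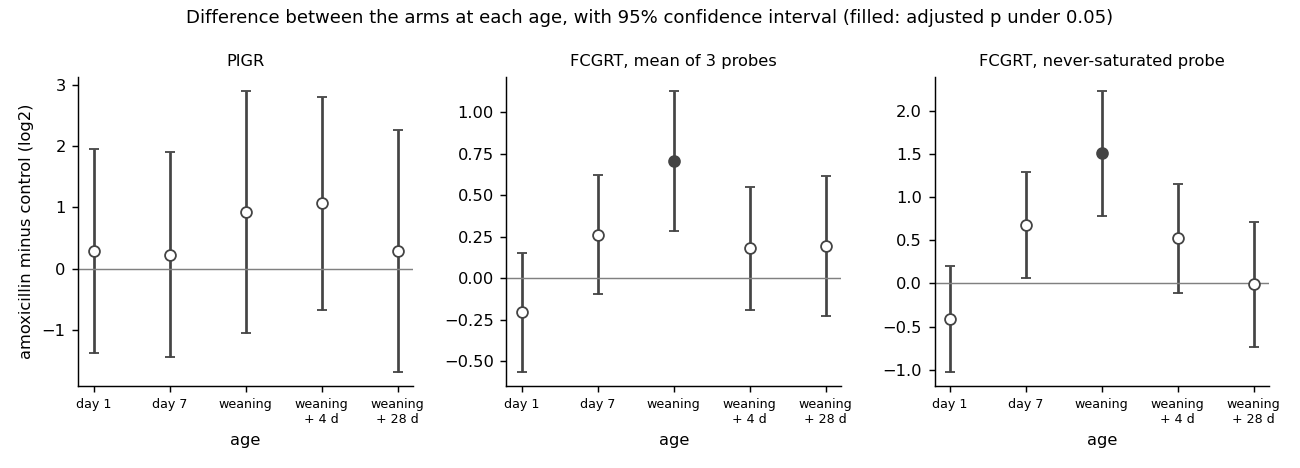
Amoxicillin minus control in log2 (vertical axes, 1 scale per panel) at each of the 5 ages for PIGR, the mean of the 3 FCGRT probes and the never-saturated FCGRT probe, as points with 95% confidence intervals from the limma fit. Only the FCGRT differences at weaning, 0.71 and 1.504, are filled as passing an adjusted p under 0.05, and every PIGR interval spans 0.

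Across piglets of the same group, the deviations of PIGR and FCGRT from their group means were not shown to be related. Over 43 arrays Pearson's r was 0.31 (permutation p = 0.057) and Spearman's rho was 0.34 (permutation p = 0.047), and with the never-saturated probe r was 0.21 and rho 0.24. None of these 4 relations passed after adjustment (adjusted p from 0.11 to 0.21), and r was 0.34 without the 2 arrays farthest from the median of PIGR. Both values of an array share its RNA and its scaling.

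Some tested genes of IgA secretion rose over the same ages as PIGR. Of 32 listed genes of this kind, 16 were on the array under a known accession and 10 were tested. From day 1 to 28 d postweaning 5 of the 10 rose in control piglets and 7 in amoxicillin piglets, and none fell. Of all genes tested, 13.4% and 12.5% rose. Genes dim on day 1 could enter the test only through later ages, so these counts describe the tested genes alone. The list was chosen with earlier results of these data known. The median change of the 10 genes was 1.63 and 2.18, against -0.08 and -0.11 over all genes. Among them were chemokine receptors and a ligand that are known to bring IgA plasmablasts to the gut. Which cells of the scrapings carried these transcripts was not tested. CCR10 rose by 3.68 (SE 0.65) in control and 3.54 in amoxicillin piglets, CCR9 by 3.12 and 3.47, and CCL28, an epithelial ligand of CCR10, by 2.83 and 2.404. TNFSF13B (BAFF) and TNFSF13 (APRIL), which help B cells live and switch to IgA, rose by 2.28 and 2.34 and by 2.29 and 3.67. CCL25, the ligand of CCR9, was 0.99 higher in control piglets, which did not pass, and rose by 2.01 in amoxicillin piglets, as did TGFB1, an IgA switch factor, by 1.31. The last 2 were named after their values were seen.

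Of 9 listed B and plasma cell markers only CD79A and MS4A1 were tested. Their summed level was 6.06 to 8.69 in control and 6.09 to 9.62 in amoxicillin piglets on day 1, and 7.53 to 8.57 and 8.12 to 9.89 at 28 d postweaning. All 5 tested T cell markers rose in both arms from day 1 to 28 d postweaning, when 13.4% and 12.5% of all genes rose, and their summed level went from 8.89 to 9.78 on day 1 to 12.35 to 12.89 at 28 d postweaning in control piglets, and from 8.78 to 9.41 to 12.62 to 13.61 in amoxicillin piglets, without overlap. The part of these cells in the course of PIGR was not tested.

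Genes that drive PIGR transcription were measured in part. Interferon gamma, TNF, IL-4 and Toll-like receptor signals are known to raise PIGR through factors such as IRF1. Of 25 listed genes 14 were tested, 6 of which changed with age in control and 8 in amoxicillin piglets by the F-test, which 30.5% and 47% of all genes passed. From day 1 to 28 d postweaning 4 rose in control piglets, and in amoxicillin piglets 2 rose and 1 fell, when 13.4% and 12.5% of all genes rose and 18.9% fell in the amoxicillin arm. IRF1 rose by 1.64 in control and 1.57 in amoxicillin piglets. IFNGR1, a chain of the interferon gamma receptor, rose by 1.04 in control and was 0.76 higher in amoxicillin piglets, which did not pass. TLR3, a sensor of double-stranded RNA, passed the F-test in both arms but was 0.95 and 0.02 higher at 28 d postweaning than on day 1, which did not pass. IFNGR2, the other chain, rose by 0.94 in control piglets, and NR3C1, the glucocorticoid receptor, fell by 0.96 in amoxicillin piglets. NFKB1, named like these 2 after its values were seen, was the only gene of the list called between the arms, 1.13 higher in amoxicillin piglets at weaning (limma adjusted p = 0.030), when 2.76% of all genes were higher.

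The partner of FCGRT could not be followed. B2M, the light chain of FcRn, was at 15.83 to 16.00 in every group mean, at the ceiling of the scale, where a change could not be read. The list also held Fc receptors of leukocytes. FCGR3A (CD16) rose by 2.05 in control and 2.76 in amoxicillin piglets, FCGR2B, the inhibitory IgG receptor, by 1.52 and 2.20, and FCER1G, the signalling chain shared by Fc receptors, by 1.03 and 1.99. TRIM21, an IgG receptor of the cytosol, was 0.10 higher in control piglets, which did not pass, and rose by 1.01 in amoxicillin piglets. Of 13 listed genes 5 were tested, of which 3 rose in control and 4 in amoxicillin piglets, beside the 13.4% and 12.5% of all genes that rose.

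Transport machinery was sparsely measured, with 5 tested genes of 35 listed. From day 1 to 28 d postweaning 12.2% of all genes fell in control piglets. In amoxicillin piglets 18.9% fell and 12.5% rose over the same ages. RAB11A, a GTPase of the recycling endosomes through which both receptors pass, fell by 1.09 in control and 1.52 in amoxicillin piglets. RAB5C, of early endosomes, fell by 0.68 in control and was 0.21 lower in amoxicillin piglets, the latter not passing. RAB11B and CLTC, the clathrin heavy chain, passed only in amoxicillin piglets, in which RAB11B rose by 1.15 and CLTC fell by 0.62. Whether these changes differed between the arms was tested by the arm by age F-test, which 6.18% of all genes passed. It called no gene of any list, which for lists this short does not show that the arms were alike. At 28 d postweaning alone, 1 of the 5 genes was called higher and 1 lower in amoxicillin piglets by adjusted p, where 4.11% of all genes passed.

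Lysosomal genes of the vacuolated enterocytes fell while PIGR rose. These fetal-type cells take up milk macromolecules in the newborn pig and are replaced during suckling. All 11 listed genes that were on the array were tested, and 9 fell in each arm from day 1 to 28 d postweaning, when 12.2% and 18.9% of all genes fell, with a median change of -1.86 and -1.60. CTSZ, a cathepsin, fell by 4.47 in control and 3.75 in amoxicillin piglets, HEXA by 2.98 and 1.53, and NEU1 fell by 2.43 in control and fell by 2.33 in amoxicillin piglets. FCGRT, which acts in the same endosomal system, did not follow them. LIPA, lysosomal acid lipase, was the only gene of this list called between the arms at a single age. It was 1.93 lower in amoxicillin piglets at weaning (limma adjusted p = 0.029, with 5.18% of all genes lower), and was named after its values were seen. Averaged over the 5 ages, 2 of the 11 genes were called higher in amoxicillin piglets and 0 lower, where 10.1% of all genes passed.

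**Figure D4:**
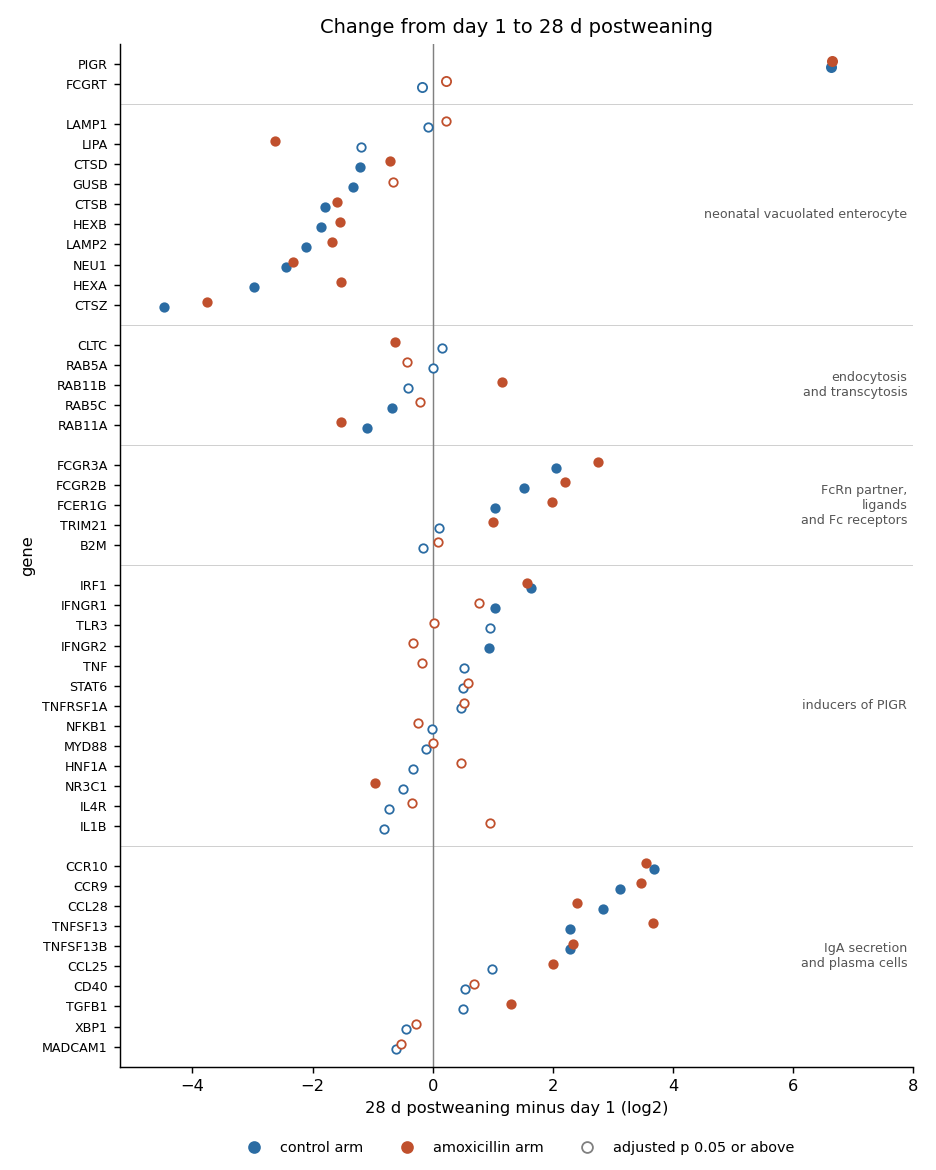
Change from day 1 to 28 d postweaning in log2 (horizontal axis) for PIGR, FCGRT and tested genes of 5 lists (rows, 2 tested genes not shown), 1 point per arm, filled where the limma adjusted p was under 0.05. PIGR lies at 6.64 in both arms, beyond every listed gene shown, FCGRT lies near 0, and 8 of the 10 genes shown of the vacuolated enterocyte list are filled on the left in each arm.

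Over the lists, genes that were dim on day 1 could enter the test only through later ages, so the counts describe the tested genes and not all listed ones. Enterocyte markers gave a limited measure of how much epithelium a scraping held. Of 8 tested, 7 had every group mean at 14.61 or above, toward the ceiling, where a large rise could not be read. A fall could be read, and the summed level in the amoxicillin weaning group ran from 17.22 to 18.85. SLC5A1, the glucose transporter of the brush border, was the only one called, rising by 2.04 in control piglets. The ileal enterocyte markers SLC10A2, FABP6 and GUCA2B, which check the gut segment, had a summed level of 11.76 to 16.47 over the arrays, and FABP6 changed with age in both arms (limma F-test adjusted p = 0.039 and 0.029). Their part in the course of PIGR or FCGRT was not tested.

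The genes whose level was most like that of PIGR over the 43 arrays, among 1858 named genes, were PSMB9 (Pearson's r = 0.90), C4BPA (0.89), TNFSF13 (0.88), PSMB8 (0.87) and LAG3 (0.87). PSMB8 and PSMB9 are subunits of the immunoproteasome, C4BPA is a chain of a complement inhibitor, and LAG3 is a receptor of activated T cells. From day 1 to 28 d postweaning these 5 rose by 1.69 to 2.89 in control and 1.82 to 3.67 in amoxicillin piglets, less than PIGR, and PSMB9 was near the ceiling after weaning with group means of 15.87 to 15.96. In the RefSeq table of porcine genes (assembly Sscrofa11.1) C4BPA lies on the same chromosome as PIGR with 5 protein-coding genes between them. The genes most opposed to it were BEX1 (r = -0.87), MMP20 (-0.86) and SLC26A11 (-0.84), which fell by 3.03 to 6.45. These coefficients run over arrays of all ages and both arms, which share scaling and the course over age, and carry no test.

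**Figure D5:**
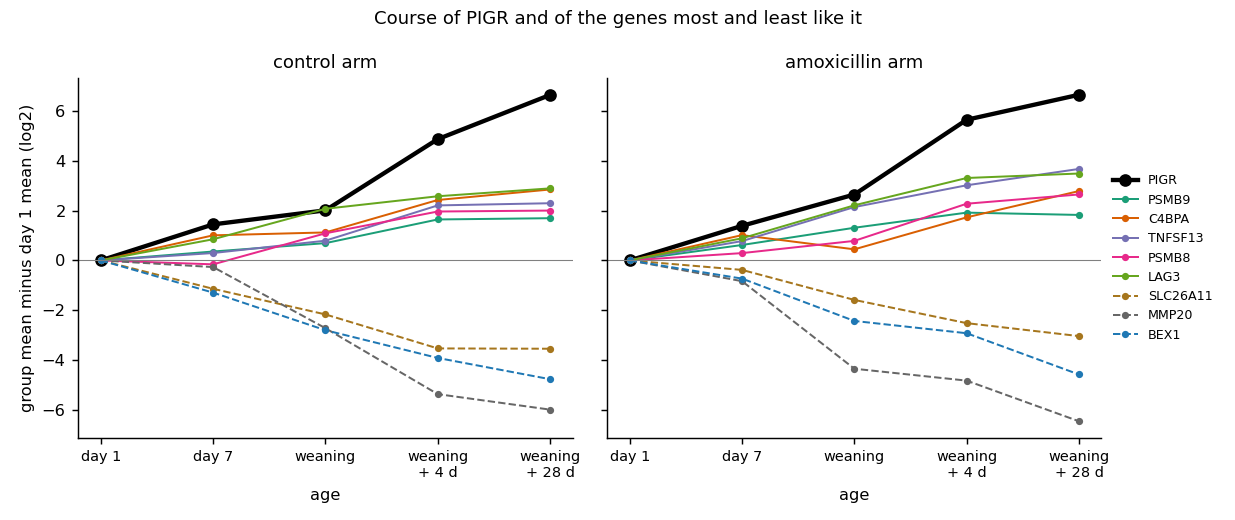
Group mean minus the day 1 mean of the same arm in log2 (vertical axis) over the 5 ages for PIGR (thick line), the 5 genes most like it (solid lines) and the 3 most opposed to it (dashed lines), 1 panel per arm. PIGR ends at 6.64 in both panels and takes its steepest step between weaning and 4 d postweaning.

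FCGRT was compared with other genes by the mean of its probes, which includes saturated spots where a further rise could not be read. Whether it had a close companion cannot be told from the r values below. The genes most like this mean were RNASE4 (r = 0.72), SLC44A4 (0.72), PPT2 (0.71), ARPC1A (0.71) and DLST (0.71). The most opposed were TMCO1 (-0.63), DDX46 (-0.62) and UBE3A (-0.59). None of these 8 genes passed the F-test over ages, which 30.5% of all genes passed in control and 47% in amoxicillin piglets. They were picked by their correlation with FCGRT, which did not pass either, so this is no separate result.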

How the data were processed

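RNA of jejunal scrapings was labelled with cyanine-3 and hybridized to porcine one-color Agilent arrays, which were scanned and extracted by the authors with Feature Extraction 10.7.3.1. The deposited scan files hold the median intensity of each spot and of its local background per the file headers, not scaled between arrays. The deposited table of log2 values was made by the authors in R 3.0.2 with limma (normexp background correction with offset 1 and quantile normalization), and the values used here, recomputed from the intensities with limma 3.58.1 in R 4.3.3, differed from it by at most 5e-09. The genome build behind the probes is not given in the sources used here, and no coordinates are given.

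Spots that the scanner marked as outliers were left out, and probes of an accession were averaged. Genes had to exceed 7.68 on the log2 scale (1.1 times the brightest dark control spot, 6.98) on all arrays of 1 or more groups, and 12771 genes did, 12475 of them without missing values. Names came from the RefSeq table by accession, and 1914 of the tested genes had one. PIGR and FCGRT kept all their values on all 43 arrays. One limma model with 10 groups (arm by age) was fitted to all arrays, with eBayes and Benjamini-Hochberg adjustment over all genes tested. Fold changes are differences of log2 group means. The script was tested on simulated data with known changes. For single values an exact two-sided permutation test over piglets was used, and for the deviations from group means a permutation test.

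The genes named from each list were up to 4 with the largest range of control age means among those that passed a test over age (2 such genes are not reported here), and the genes named as most alike were the 5 highest and 3 lowest correlations over the arrays. PIGR, FCGRT and the gene lists were chosen with earlier results of these data known. Groups came from the labels, and none of the 43 samples was left out. Alternatives were the offset, the scaling, the filter, slide as a block, the piglet number as a block, the fold threshold, single probes, array weights, fitting each arm or age alone, and leaving out each array. Leaving out the 3 dimmest arrays or the 2 arrays with high B cell markers, and the exact test on the never-saturated probe, were chosen after seeing the data. The number of piglets limits the precision of all values.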

Additional observations from a re-analysis of the deposited data

Results flagged for a closer look

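At 28 d postweaning the PIGR level of amoxicillin piglet 40 was 11.32 on the log2 scale, far below the next lowest of the 4 arrays at 13.59, a gap of 0.847 of the group's whole range (Dixon's critical value 0.829). Of 24 checks for a sample far from the rest of its group this was the only one past the limit, and chance gives about 1 in 20. Its array had 18208 gene spots well above background, and its FCGRT level was 14.80, the highest of the group.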

How the results depend on the processing

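The rise of PIGR from day 1 to 28 d postweaning kept its direction under all alternatives run and passed except with slide as a fixed block in control piglets and with the piglet number as a block in both arms. With slide as a fixed block it was 4.34 in control piglets, the test over ages gave an adjusted p of 0.48, and the control steps to day 7 and to weaning turned to -0.44 and -0.38, while the FCGRT step to weaning in amoxicillin piglets was -0.016. Over all genes the calls from day 1 to 28 d postweaning fell from 3274 to 66 in control and from 4009 to 576 in amoxicillin piglets under that block. With slide as a random block the PIGR arm difference on day 1 was -0.047.

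With the piglet number as a replicate block, the rise of PIGR was 7.52 in control and 6.98 in amoxicillin piglets without passing, and the test over ages gave an adjusted p of 0.60 and 0.67. Under this replicate block FCGRT changed from day 1 to 28 d postweaning by -0.77 and from weaning to 4 d postweaning by -0.090 in amoxicillin piglets, and the arm differences at 28 d postweaning were -0.35 for PIGR and -0.42 for FCGRT. Whether the numbers pair the samples was not settled, and the labels do not say what a number stands for. The deviations of same-numbered piglets of the same age, compared across the arms, correlated by -0.27 to 0.44, over 0.1 in 4 of 10 pairs. This comparison cannot decide the question, since it holds no differently numbered piglets and no piglets of different ages. Over all genes the block left 37 and 14 calls from day 1 to 28 d postweaning.

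FCGRT values near 0 changed sign. Scaling to a common 75th percentile gave -0.12 from day 1 to 28 d postweaning and -0.13 from weaning to 4 d postweaning in amoxicillin piglets, -0.0072 between the arms at 28 d postweaning, and an adjusted p of 0.047 over ages in amoxicillin piglets. The processed signal gave -0.072, -0.038 and -0.0026 for the first 3 of these. The array weights gave FCGRT 0.10 from 4 d to 28 d postweaning and 0.16 from day 1 to 28 d postweaning in control piglets, an adjusted p of 0.017 over ages, and -0.18 between the arms at 28 d postweaning. The same weights gave PIGR arm differences of -0.23 on day 7, -0.087 at weaning and -0.31 at 28 d postweaning. Without the 3 arrays with the fewest spots above background, FCGRT gave 0.053 and 0.11 for those 2 control changes and -0.0088 between the arms, and the PIGR arm difference was -0.63. Without the 2 arrays with high B cell markers, FCGRT changed by -0.10 from weaning to 4 d postweaning in amoxicillin piglets.

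By probe, A_72_P570294 gave an arm difference of 1.504 at weaning and -0.0115 at 28 d postweaning, and -0.0116 from weaning to 4 d postweaning in amoxicillin piglets. Probe A_72_P440381 gave -0.11 between the arms at 4 d postweaning and 0.11 from day 1 to day 7 in control piglets, and probe A_72_P232557 gave 0.021 from 4 d to 28 d postweaning and -0.026 from day 7 to weaning in amoxicillin piglets. With no fold threshold the FCGRT difference of 0.71 at weaning passed, and it did not under the common percentile (adjusted p = 0.056), the processed signal (0.19) or without the filter (0.056).

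Leaving out 1 array at a time moved FCGRT in control piglets between -0.53 and 0.053 from 4 d to 28 d postweaning and between -0.46 and 0.11 from day 1 to 28 d postweaning, both ends set by piglets 37 and 34, with an adjusted p over ages of 0.046 to 0.34. In amoxicillin piglets it moved between -0.10 and 0.18 from weaning to 4 d postweaning and between -0.066 and 0.21 from day 7 to weaning. The arm difference at 28 d postweaning ran from -0.10 to 0.48 for FCGRT and from -0.17 to 1.04 for PIGR. For PIGR it ran from -0.47 to 1.07 on day 1 and from -0.32 to 0.75 on day 7, and the control step to weaning from -0.46 to 1.32.

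The gene lists lost most of their calls over age under the slide block (0 to 4 genes) and all under the replicate block. The inducers of PIGR had 3 and 2 genes called with slide as a random block and 10 in control piglets with array weights. The IgA list had 3 in control piglets on the processed signal and 8 with array weights. The causes were not tested. What limits the values is the dim PIGR signal on day 1, the saturated FCGRT probes and 3 to 6 piglets per group.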
